A study of Mus musculus with 18 samples.

Results

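The Toll-like receptors are pattern recognition receptors of innate immunity, and the set described here is the mouse genes Tlr1 to Tlr9 together with Myd88, the adaptor protein through which most of them signal. The members were taken by name: every probe that is no control and whose gene name in the scanner files is one of these 10 symbols. That gave 12 probes for the 10 genes, out of 41174 probes on the array, with 2 probes each for Tlr3 and Tlr4. A total of 8 of the 10 genes were measured well enough to be tested, among 13394 genes tested in all, and Tlr3 and Tlr8 were not.

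The study asked which transcripts of mouse blood mark an exposure to ionizing radiation. Whole blood was taken by cardiac puncture 6 h after gamma irradiation from a cesium source, and the RNA of each of 18 mice was hybridised to 1 Agilent whole-genome array with 1 colour. All mice were male C57BL/6N animals, 8 to 12 weeks old: 6 had received 8 Gy, 5 had received 2 Gy and 7 were sham-treated controls, called 0 Gy. RNA came from the PAXgene kit in 3 mice (1 at 2 Gy and 2 at 0 Gy) and from the RiboPure kit in 15 (6 at 8 Gy, 4 at 2 Gy and 5 at 0 Gy), and globin RNA had been removed from every sample. Whole blood is a mixture, so fewer cells of a type and less RNA per cell cannot be told apart in any value below.

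Each Toll-like receptor binds a class of microbial molecule through a horseshoe of leucine-rich repeats and signals through a Toll/interleukin receptor domain inside the cell. Tlr1, Tlr2, Tlr4, Tlr5 and Tlr6 sit at the cell surface, whereas Tlr3, Tlr7, Tlr8 and Tlr9 sit in endosomes and bind nucleic acids. Myd88 links the receptors to kinases of the Irak family and, through them, to NF-kB and AP-1, and in blood the surface receptors are best known from neutrophils and monocytes, Tlr7 and Tlr9 from B cells and plasmacytoid dendritic cells.

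The probes are 60 bases long and their positions, per the file headers, are on the mouse build mm7; no gene annotation of that build was used here, so exon or untranslated region is not given. The sequences of the 5 genes whose dose difference passed the test are shown, since each value below is the signal of 1 such probe; capitals mark AATAAA, the common polyadenylation signal, where a probe holds it.
Tlr2 probe, chr3:83941473-83941532, minus strand: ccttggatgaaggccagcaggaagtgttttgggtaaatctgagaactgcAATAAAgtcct
Tlr6 probe, chr5:64307937-64307996, minus strand: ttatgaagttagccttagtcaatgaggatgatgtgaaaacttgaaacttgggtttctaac
Tlr4 probe, chr4:66276388-66276447, plus strand: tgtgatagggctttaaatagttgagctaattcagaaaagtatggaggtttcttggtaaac
Myd88 probe, chr9:119016408-119016467, minus strand: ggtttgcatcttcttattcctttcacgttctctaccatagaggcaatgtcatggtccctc
Tlr1 probe, chr5:64279687-64279746, minus strand: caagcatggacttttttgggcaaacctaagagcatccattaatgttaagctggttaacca
Among the 66 pairs of the 12 probes the longest shared run was 8 bases, and no pair matched at more than 29 of 60 bases in any ungapped alignment. The Tlr1 and Tlr6 probes, which read neighbouring genes on chromosome 5, are thus separate sequences. Tlr2, Tlr4 and Myd88 were each spotted 10 times on an array, and their spots varied with a median SD of 0.044, 0.079 and 0.061 on the log2 scale.

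Levels are log2 processed signals minus the 75th percentile of the array's spots that are no controls, so a level of 0 is the signal of that percentile, and levels of different probes have no common scale. That percentile, in intensity units, lay between 148 and 443 on the 0 Gy arrays, between 49.2 and 198 on the 2 Gy arrays and between 61.3 and 247 on the 8 Gy arrays. Precision is limited by how many arrays there are. The array labelled 0 Gy replicate 5 stood apart from the other 6 arrays at 0 Gy, with a neutrophil marker score of 1.70 and a B cell marker score of -1.88 (mean log2 difference from the 0 Gy mean), against at most 0.12 and at least -0.27 on the others. It is kept as labelled, and the member results are given with and without it. The arrays 0 Gy replicate 4 and 2 Gy replicate 3 lay far from the rest on the first principal component, at -126.5 and -112.5, and correlated with the other arrays with a median r of 0.832 and 0.845.

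At 8 Gy, 5 of the 8 genes tested differed from 0 Gy at an adjusted p below 0.05 (limma, Benjamini-Hochberg over 13394 genes). Tlr2, Tlr6, Tlr4 and Myd88 rose and Tlr1 fell. Of all genes tested, 11.9% were called in this comparison, 7.23% higher and 4.67% lower. That is 60.8% of the calls higher, a share that another background correction and other scalings put between 37.6% and 45.8%. The median log2 fold change was 0.92 over the 8 genes tested and 0.06 over all genes.

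**Figure D1:**
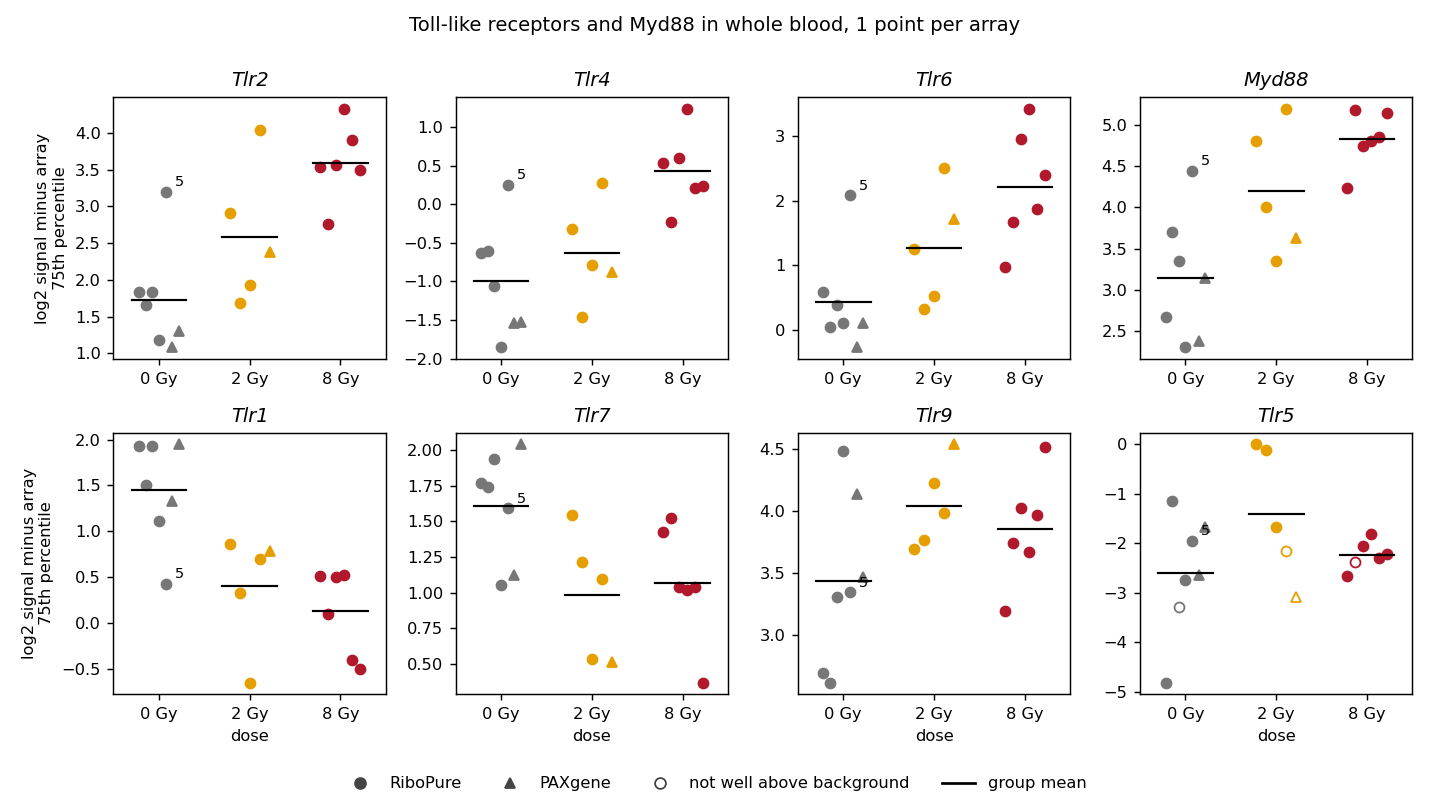
Level of each gene on each array (log2 signal minus the array's 75th percentile) at 0, 2 and 8 Gy, with circles for RiboPure, triangles for PAXgene, open symbols where the probe was not well above background, and a line at the group mean; the number 5 marks 0 Gy replicate 5. Tlr2, Tlr4, Tlr6 and Myd88 lie higher and Tlr1 lower at 8 Gy, and 0 Gy replicate 5 lies among the 8 Gy levels of these genes.

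Tlr2, the surface receptor for bacterial lipoproteins, ranged from 2.75 to 4.33 with a median of 3.55 on the 8 Gy arrays, against 1.08 to 3.20 with a median of 1.66 on the 0 Gy arrays. The log2 fold change was 1.70 ± 0.40 (SE; adjusted p = 0.0215, limma), a 3.26-fold rise. Of the 6 arrays at 8 Gy, 5 lay above every array at 0 Gy, and the overlap came from 0 Gy replicate 5 at 3.20, since the other 0 Gy arrays reached only 1.84.

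Tlr6, the partner of Tlr2 for diacylated lipoproteins, ranged from 0.98 to 3.41 with a median of 2.14 at 8 Gy, against -0.26 to 2.09 with a median of 0.11 at 0 Gy. Its log2 fold change was 1.70 ± 0.48 (SE; adjusted p = 0.0379, limma), or 3.26-fold. The groups overlapped through the same control array at 2.09, and the remaining 0 Gy arrays stayed at or below 0.59, under the lowest 8 Gy level.

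Tlr4, the receptor for lipopolysaccharide, ranged from -0.23 to 1.24 with a median of 0.39 at 8 Gy, against -1.85 to 0.25 with a median of -1.06 at 0 Gy. The log2 fold change was 1.26 ± 0.35 (SE; adjusted p = 0.0357, limma), a 2.39-fold rise. Only 3 of 6 arrays at 8 Gy lay above every 0 Gy array, but all 6 lay above the highest of the other 0 Gy arrays, -0.61. These values are those of the probe that passed the filter; the other probe named Tlr4, placed 86832 bases further along chromosome 4, was not well above background on any of the 18 arrays.

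Myd88 ranged from 4.23 to 5.18 with a median of 4.83 at 8 Gy, against 2.31 to 4.45 with a median of 3.14 at 0 Gy. Its log2 fold change was 1.51 ± 0.36 (SE; adjusted p = 0.0225, limma), or 2.85-fold. Its 8 Gy levels had the smallest SD of the 5 genes called, 0.34 (n = 6), and 5 of the 6 lay above every control.

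Tlr1, the partner of Tlr2 for triacylated lipoproteins, ran the other way. It ranged from -0.50 to 0.53 with a median of 0.30 at 8 Gy, against 0.43 to 1.95 with a median of 1.50 at 0 Gy. The log2 fold change was -1.23 ± 0.32 (SE; adjusted p = 0.0278, limma), a 2.35-fold fall. All 6 arrays at 8 Gy lay below 1.12, the lowest of the other 0 Gy arrays once replicate 5, at 0.43, was set aside.

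The 3 other genes tested did not pass the threshold at 8 Gy. Tlr7, which binds single-stranded RNA, ranged from 0.37 to 1.53 with a median of 1.04 at 8 Gy, against 1.05 to 2.04 with a median of 1.74 at 0 Gy (log2 fold change -0.60 ± 0.25, adjusted p = 0.107, limma). Tlr9, which binds unmethylated CpG DNA, ranged from 3.20 to 4.51 with a median of 3.86 at 8 Gy, against 2.62 to 4.48 with a median of 3.35 at 0 Gy (0.57 ± 0.29, adjusted p = 0.182, limma). For Tlr7, 4 of the 6 arrays at 8 Gy lay below every 0 Gy array. Of these, replicates 3, 4 and 5 did so only narrowly, at 1.044, 1.023 and 1.042 against 1.052 on 0 Gy replicate 4. For Tlr9 only 1 of 6 lay above every 0 Gy array. Tlr5, the flagellin receptor, ranged from -2.66 to -1.80 with a median of -2.26 at 8 Gy, against -4.81 to -1.13 with a median of -2.64 at 0 Gy (0.27 ± 0.58, adjusted p = 0.780, limma), and its probe was dim, above background in 5 of 6 mice at 8 Gy, 3 of 5 at 2 Gy and 6 of 7 at 0 Gy.

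**Figure D2:**
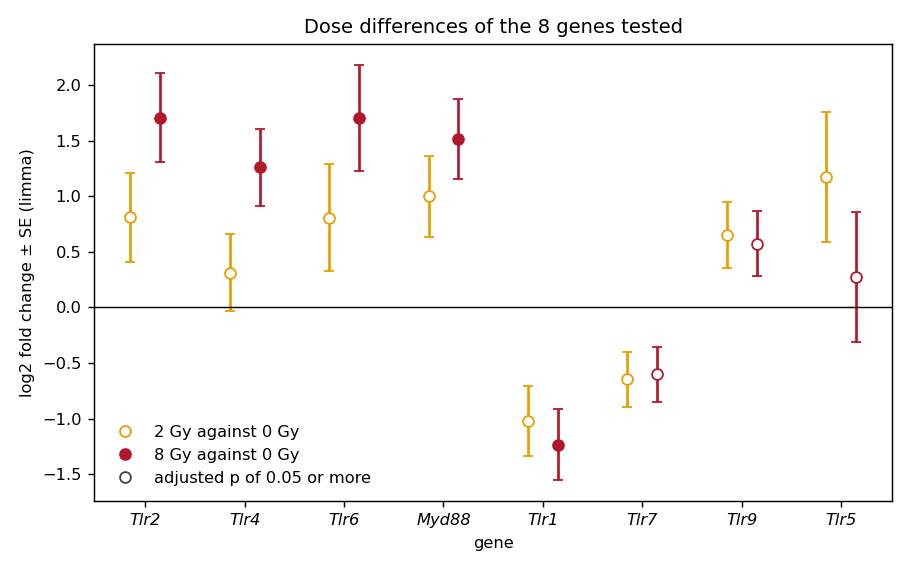
Log2 fold change with its standard error (limma) for the 8 genes tested, at 2 Gy and at 8 Gy against 0 Gy, filled where the adjusted p was below 0.05. The filled points are the 8 Gy values of Tlr2, Tlr4, Tlr6, Myd88 and Tlr1; both comparisons share the 0 Gy arrays.

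With all arrays, no gene of the set had 8 Gy and 0 Gy groups free of overlap, where 1.75% of all genes did. Without 0 Gy replicate 5 there were 5 such genes, the same as those called, where 8.91% of all genes did. The model without that array again called 4 genes higher and 1 lower, while the share of all genes called went up to 22.3%. The calls did not hold with every array left out: none was made without 0 Gy replicate 1, where 1.97% of all genes were called, 1 without 0 Gy replicate 2 or 8 Gy replicate 6, 2 without 0 Gy replicate 3, 8 Gy replicate 4 or 8 Gy replicate 5, 3 without 0 Gy replicate 4 or 7, 2 Gy replicate 5 or 8 Gy replicate 2 or 3, and 4 without 2 Gy replicate 1. The share of all genes called was below 11.9% in each of these fits too, at 2.42% without 0 Gy replicate 2, 2.85% without 8 Gy replicate 6 and at most 6.56%, without 2 Gy replicate 1. In fits that took slide or scan day as a random block, Tlr4 (adjusted p = 0.0654 and 0.0584, limma) and Tlr6 (adjusted p = 0.0630 and 0.0536) lost their call and Tlr2, Myd88 and Tlr1 did not, where 4.36% and 5.87% of all genes were called. Over the 18 fits that each left out 1 array, the adjusted p (limma) ran from 0.00299 to 0.0569 for Tlr2 and from 0.00366 to 0.0642 for Myd88. It ran there from 0.00605 to 0.0762 for Tlr1, from 0.00717 to 0.0709 for Tlr4 and from 0.00673 to 0.0869 for Tlr6, and no sign changed. Without 0 Gy replicate 4 and 2 Gy replicate 3 together, a choice made after seeing the data, 3 genes were called higher and 2 lower. In that fit the share of all genes called was 13.9%, above the 11.9% with all arrays. Tlr9 (0.85 ± 0.23, adjusted p = 0.0340, limma) and Tlr7 (-0.76 ± 0.23, adjusted p = 0.0429) passed there, and Tlr6 (1.58 ± 0.51, adjusted p = 0.0507) and Tlr4 (1.02 ± 0.33, adjusted p = 0.0523) did not. Within slide 1, the only slide holding both groups, the 2 arrays at 8 Gy minus the 1 at 0 Gy gave log2 differences of 2.10 for Tlr2, 2.60 for Tlr6, 1.55 for Tlr4, 2.11 for Myd88 and -1.41 for Tlr1.

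At 2 Gy, none of the 8 genes passed the threshold against 0 Gy, and 0.0523% of all genes did. At an unadjusted p below 0.05 there were 4 of the 8 (Tlr1, Myd88, Tlr7 and Tlr9), against 20.3% of all genes. Myd88 stood at 4.80, 4.00, 3.35, 5.19 and 3.63 on the 5 arrays at 2 Gy, a log2 fold change of 1.00 ± 0.36 (SE; adjusted p = 0.166, limma). Tlr1 stood at 0.86, 0.33, -0.65, 0.70 and 0.78, a log2 fold change of -1.02 ± 0.32 (SE; adjusted p = 0.127, limma). For both genes the 2 Gy arrays lay toward the 8 Gy side of the controls but reached into the 0 Gy range. Without 0 Gy replicate 5, the model called both (Myd88 1.21 ± 0.34, adjusted p = 0.0450; Tlr1 -1.20 ± 0.30, adjusted p = 0.0307), where it called 6.39% of all genes. Groups at 2 Gy and 0 Gy free of overlap occurred in no gene of the set (1.13% of all genes), or in Tlr1 alone without that array (4.6% of all genes).

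Tlr2 stood at 2.91, 1.68, 1.93, 4.04 and 2.38 on the 2 Gy arrays (log2 fold change 0.81 ± 0.40, adjusted p = 0.262, limma). Tlr6 stood at 1.26, 0.33, 0.53, 2.50 and 1.73 on the same arrays (0.81 ± 0.48, adjusted p = 0.337, limma). In both genes replicate 4, the dimmest array with a 75th percentile of 49.2, was the highest and lay within the 8 Gy range. So did replicate 1 for Tlr2 and replicates 1 and 5 for Tlr6. Tlr4 stood at -0.32, -1.46, -0.78, 0.27 and -0.88 (0.31 ± 0.35, adjusted p = 0.622, limma), again with replicate 4 highest. Tlr7 (-0.65 ± 0.25, adjusted p = 0.182), Tlr9 (0.65 ± 0.29, adjusted p = 0.228) and Tlr5 (1.17 ± 0.58, adjusted p = 0.265) had no call by limma either, and Tlr5 spread over more than 3 log2 units at 2 Gy, with 0.00 on replicate 1 and -3.08 on replicate 5. Within slides that held both groups, Tlr2 at 2 Gy minus 0 Gy was 0.63 on slide 2, 1.30 on slide 5 and -1.27 on slide 4, and Tlr6 was 0.74, 1.99 and -1.56 on the same slides; the control on slide 4 was 0 Gy replicate 5.

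Between 8 Gy and 2 Gy no gene was called, in the set or among all genes (0%). At an unadjusted p below 0.05 there were 2 of the 8 in the set, Tlr4 (log2 fold change 0.95 ± 0.37) and Tlr2 (0.90 ± 0.42; both adjusted p = 0.929, limma), against 3.17% of all genes. On slide 7, the only slide with both doses, the 3 arrays at 8 Gy minus the 1 at 2 Gy, replicate 4, gave log2 differences of the other sign, -0.10 for Tlr4 and -0.64 for Tlr2, with -1.0 for Tlr6 and -0.43 for Myd88. For Tlr7 the difference was 0.04 with a 95% interval from -0.51 to 0.59, and for Tlr1 it was -0.21 with an interval from -0.92 to 0.49. The intervals include differences as large as 0.5 log2 units either way for Tlr7, and larger ones downward for Tlr1. Between the kits, PAXgene against RiboPure, 0 of 8 genes were called where 3.68% of all genes were, with log2 differences from -0.60 for Myd88 to 0.55 for Tlr9, and no member had an unadjusted p below 0.05. No member's 2 Gy difference depended on the kit at an adjusted p below 0.05; the lowest unadjusted p, 0.0456, was that of Tlr5, with an adjusted p of 1.00 (limma, 1 PAXgene array at 2 Gy).

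Tlr3 and Tlr8, the remaining endosomal receptors of the set, had no level that could be followed. Tlr3, which binds double-stranded RNA and signals through Ticam1 in place of Myd88, exceeded background clearly in 2 of the 7 controls with one probe and in 1 of 7 with the other, and in no mouse at 2 or 8 Gy. Tlr8, the closest relative of Tlr7, did so in 2 of 6 mice at 8 Gy, 0 of 5 at 2 Gy and 1 of 7 at 0 Gy. No fold is given for either gene. Tlr11, Tlr12 and Tlr13 had no named probe among those used here.

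Tlr1 and Tlr6 each pair with Tlr2, and their log2 fold changes at 8 Gy had opposite signs. The difference Tlr6 minus Tlr1 within an array, a pair chosen after the values were seen and so given with no test, has no meaningful zero, but its shift between arrays can be read. It averaged -1.02 ± 1.21 at 0 Gy (SD, n = 7), 0.86 ± 0.70 at 2 Gy (n = 5) and 2.09 ± 0.94 at 8 Gy (n = 6). Every 2 Gy and 8 Gy array, from 0.00 upward, lay above the 0 Gy arrays other than replicate 5, which ran from -1.83 to -1.01. Replicate 5 stood at 1.66, within the range of the irradiated arrays. The opposite signs for which the pair was chosen build such a shift into the difference, and no share over other gene pairs was computed. By contrast, Tlr2 minus Tlr4 averaged 2.72 ± 0.28 at 0 Gy, 3.22 ± 0.38 at 2 Gy and 3.16 ± 0.28 at 8 Gy.

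**Figure D3:**
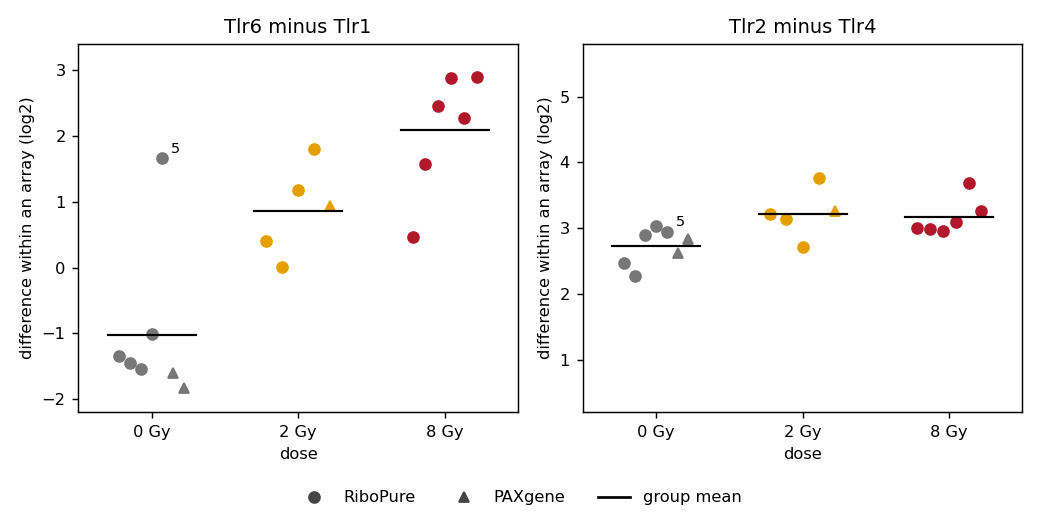
Difference within each array between the log2 levels of Tlr6 and Tlr1 (left) and of Tlr2 and Tlr4 (right) at 0, 2 and 8 Gy, both axes spanning the same number of log2 units; circles are RiboPure, triangles PAXgene, lines group means, and 5 marks 0 Gy replicate 5. Tlr6 minus Tlr1 averages -1.02 at 0 Gy and 2.09 at 8 Gy, while Tlr2 minus Tlr4 averages 2.72 and 3.16.

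Markers of the blood cell types moved with dose beside these genes. At 8 Gy, 18 of 21 neutrophil markers tested were higher and none lower (median log2 fold change 2.29), and 18 of 19 B cell markers were lower (median -3.00), where 7.23% and 4.67% of all genes were. The neutrophil score, the mean of its markers relative to 0 Gy, ran from 1.16 to 3.01 at 8 Gy, against -0.65 to 1.70 at 0 Gy, and the B cell score from -3.87 to -1.11, against -1.88 to 0.76. Of the other lists, 3 of 12 platelet markers were higher; 1 of 17 monocyte markers was higher and 1 lower; 2 of 20 T cell, 3 of 13 dendritic cell and 2 of 7 eosinophil and basophil markers were lower; and no call fell among 12 NK cell and 9 erythroid markers. Without 0 Gy replicate 5, where 22.3% of all genes were called, 19 of 21 neutrophil and 12 of 12 platelet markers were higher (medians 2.66 and 1.22). So were 2 NK cell, 2 monocyte, 1 B cell, 1 erythroid and 1 eosinophil and basophil marker. The lower calls there were 18 B cell, 3 dendritic cell, 2 T cell, 2 eosinophil and basophil markers and 1 monocyte marker. Siglech, a marker of plasmacytoid dendritic cells, and Epx, Prg2, Mcpt8 and Ms4a2 of eosinophils and basophils were below the filter. The part of these cell types in the receptor differences was not tested.

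Once the dose and kit means had been removed, the 18 arrays still differed, and the genes of the set followed the marker scores to different degrees. Tlr6 had r = 0.94 with the neutrophil score, Tlr2 0.87, Tlr4 0.79 and Myd88 0.77. Without the 2 arrays farthest from the median score these were 0.90, 0.74, 0.64 and 0.59. The other 4 genes had values between -0.06 and 0.02 with that score. Without the 2 farthest arrays Tlr1 had 0.29, Tlr5 -0.002, Tlr9 -0.02 and Tlr7 -0.06 with it. Myd88 also had 0.81 with the platelet score, or 0.67 without the 2 farthest arrays. Tlr6 had 0.60, Tlr2 0.55 and Tlr4 0.44 with the platelet score. Tlr7 had 0.71 and Tlr9 -0.70 with the monocyte score, and both fell to a size of 0.56 without the 2 farthest arrays. Tlr5 had 0.52 and Myd88 0.51 with the monocyte score, or 0.50 and 0.31 without those arrays. With the B cell score, Tlr6 had -0.73, Tlr2 -0.56, Tlr9 -0.52, Myd88 -0.50, Tlr1 0.48, Tlr7 0.42, Tlr4 -0.41 and Tlr5 -0.09. Without the 2 farthest arrays Tlr6 and Tlr2 had -0.52, Tlr9 -0.50, Tlr7 0.41, Tlr4 -0.34, Tlr1 0.26, Myd88 -0.22 and Tlr5 0.05 with it. These are descriptions over 18 arrays that share the array scaling, and 0 Gy replicate 5 is among them.

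**Figure D4:**
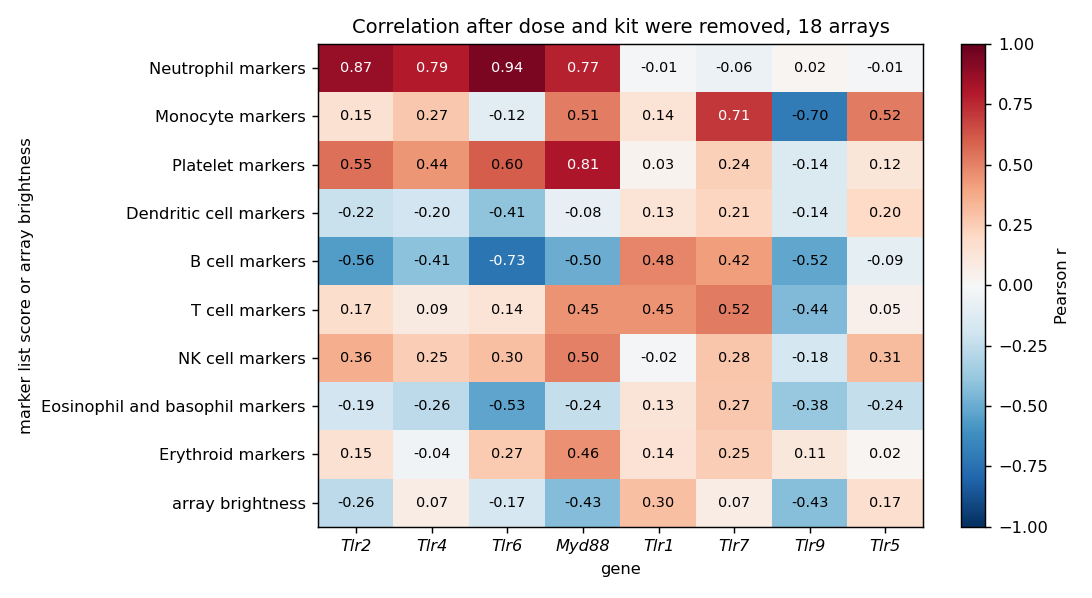
Pearson r over 18 arrays between each gene (columns) and each marker list score or the array brightness (rows), after the dose and kit means were removed. Tlr2, Tlr4, Tlr6 and Myd88 have r from 0.77 to 0.94 with the neutrophil score, and Tlr7 and Tlr9 have 0.71 and -0.70 with the monocyte score.

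Among themselves, Tlr2 followed Tlr4 with r = 0.90 and Tlr6 with r = 0.82 after dose and kit were removed, and Tlr1 followed Tlr7 with r = 0.62. Tlr7 and Tlr9 ran against each other, with r = -0.76. The genes tested whose levels over the 18 arrays were most like each member were, for Tlr2, Fosl2 (r = 0.98), Csf2rb (0.97) and Nfe2l2 (0.97), and for Tlr6, Txnl4b, Il1f9 and Stfa2l1 (0.98 each), the last being one of the neutrophil markers. For Tlr4 they were Rab32 (0.96), Aldh3b1 (0.96) and Tlr2 itself (0.94), and for Myd88 C130050O18Rik (0.98), Tpd52 (0.97) and Rab11fip1 (0.96). Tlr1 was most like Atp10d (0.94), Btla (0.94) and Xxylt1 (0.93). Tlr7 was most like Armcx2 (0.91), Plekho1 (0.88) and Bmf (0.88), Tlr9 most like Slc39a14 (0.94), Slc4a9 (0.94) and Vmn1r192 (0.93), and Tlr5 had only weaker matches, Mpzl2 (0.80), Tshz3 (0.79) and Boll (0.78). With dose and kit removed, Tlr9 with Slc39a14 had r = 0.96, Tlr7 with Bmf 0.95 and Tlr6 with Il1f9 0.98, each the highest of its gene's matches. Other matches were lower, such as Tlr7 with Armcx2 at 0.87 and Tlr1 with Btla at 0.85. The lowest of all was Tlr5 with Boll at 0.74.

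RefSeq promoter windows of 300 bases on the mouse build GRCm38.p6, from 250 before to 50 after the gene start, were at hand for 8 of the 10 genes; Tlr4 and Tlr7 were not matched, and Tlr1 and Tlr6 have 2 windows each. The windows of Tlr2, Tlr6 (1 of its 2) and Myd88 are shown because these genes rose together at 8 Gy and because NF-kB and interferon factors act downstream of the receptors. Capitals mark every match, on either strand, to the NF-kB motif, the AP-1 motif TGANTCA, the PU.1 motif GAGGAA or the core of the interferon-stimulated response element (GAAA, any 2 bases and GAAA again).
Tlr2 promoter, chr3:83841559-83841858, minus strand: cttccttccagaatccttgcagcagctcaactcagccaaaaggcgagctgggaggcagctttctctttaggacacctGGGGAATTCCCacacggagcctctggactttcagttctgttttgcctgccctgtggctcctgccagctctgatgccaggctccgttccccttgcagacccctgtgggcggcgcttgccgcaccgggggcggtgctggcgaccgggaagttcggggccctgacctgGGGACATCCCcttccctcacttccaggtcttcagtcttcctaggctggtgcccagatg
Tlr6 promoter, chr5:64959117-64959416, minus strand: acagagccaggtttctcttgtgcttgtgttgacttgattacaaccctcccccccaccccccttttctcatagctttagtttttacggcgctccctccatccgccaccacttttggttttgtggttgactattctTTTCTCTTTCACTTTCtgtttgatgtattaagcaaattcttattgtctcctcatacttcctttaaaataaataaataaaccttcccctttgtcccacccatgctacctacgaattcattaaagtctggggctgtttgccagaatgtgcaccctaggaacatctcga
Myd88 promoter, chr9:119339969-119340268, minus strand: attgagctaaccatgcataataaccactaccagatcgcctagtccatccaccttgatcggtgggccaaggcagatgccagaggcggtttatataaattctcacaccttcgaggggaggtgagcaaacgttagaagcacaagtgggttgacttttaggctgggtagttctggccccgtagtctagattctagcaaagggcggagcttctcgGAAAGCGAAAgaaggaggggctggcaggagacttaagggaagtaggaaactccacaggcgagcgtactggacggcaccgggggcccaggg
The Tlr2 window holds the NF-kB motif at 2 places, around -173 and -8 relative to the start, and the motif was found in 8.46% of 32851 promoter windows. The interferon element lies in the Myd88 window and, as 2 overlapping matches, in the Tlr6 window shown, against 3.44% of all windows. The other Tlr6 window and the Tlr5 window hold no match to any of these motifs. Neither the shown windows nor either Tlr1 window holds the AP-1 motif (7.81% of all windows), and the PU.1 motif (28.3%) is in 1 of the Tlr1 windows and in none of those shown. Genes with no call hold such matches too: the Tlr9 window has the AP-1 motif and the PU.1 motif, the Tlr8 window the PU.1 motif, and the window of Tlr3, whose level could not be followed, the NF-kB motif. A match is only a run of letters and says nothing of binding.

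The rest of the pathway was taken from 8 lists with 104 genes in all, of which 91 were tested. At 8 Gy, 13 were higher and 4 lower, and the other 74 did not pass, where 7.23% and 4.67% of all genes were called in each direction. No gene of these lists was called at 2 Gy against 0 Gy or at 8 Gy against 2 Gy. The lists go by role, but they were chosen with earlier results of these data known, so their counts beside the shares of all genes are a description. Without 0 Gy replicate 5, where 22.3% of all genes were called, the higher calls numbered 7 among the inhibitors, 5 among the cytokine targets and 4 among the adaptors and kinases, and the lower calls 2 each among the receptor partners and the trafficking genes; with that array these counts were 2, 3, 2, 1 and 1.

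Among the partners of the receptors, 2 of 10 rose and 1 fell at 8 Gy. Trem1, a neutrophil and monocyte receptor that amplifies Toll-like receptor signals and is also in the neutrophil list, rose by 2.81 ± 0.48 on the log2 scale (SE; adjusted p = 0.00859, limma), with levels of 0.90 to 2.58 at 8 Gy, against -1.83 to 0.76 at 0 Gy. Clec7a, the beta-glucan receptor known to act with Tlr2, rose by 1.44 ± 0.39 (adjusted p = 0.0331, limma). Cd180, a Toll-like receptor homologue of B cells, fell by 2.54 ± 0.43 (adjusted p = 0.00859, limma), at -4.15 to -2.28 on the 8 Gy arrays, against -2.0 to 0.17 on the 0 Gy arrays, and its probe was well above background on 3 of the 6 arrays at 8 Gy. The groups of Trem1 and Cd180 did not overlap, where 1.75% of all genes had such groups. A second probe of Cd180 gave -0.76 ± 0.43 (adjusted p = 0.238, limma), so its probes differ in size. Cd14 (1.52 ± 0.68, adjusted p = 0.131) and Ly96 (0.42 ± 0.23, adjusted p = 0.203), the lipopolysaccharide partners of Tlr4, did not pass.

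Of 13 genes tested for the trafficking and processing of the receptors, 1 passed. Slc15a4, a lysosomal transporter needed for Tlr7 and Tlr9 responses, fell by 0.94 ± 0.26 on the log2 scale (adjusted p = 0.0361, limma). The median of this list was -0.09. Unc93b1, the chaperone that escorts the endosomal receptors, gave 0.15 ± 0.24 on that scale (adjusted p = 0.701, limma).

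Of 23 adaptors, kinases and ligases, 2 rose. Tirap, which bridges Tlr2 and Tlr4 to Myd88, rose by 1.38 ± 0.27 (adjusted p = 0.0110, limma), with levels of 1.04 to 1.93 at 8 Gy, against -0.68 to 0.78 at 0 Gy, and its other probe gave 1.08 ± 0.23 (adjusted p = 0.0138). Ikbke, an IkB kinase relative that phosphorylates interferon regulatory factors, rose by 0.90 ± 0.22 (adjusted p = 0.0236, limma). Both genes had 8 Gy and 0 Gy groups free of overlap, where 1.75% of all genes did. Ecsit, in the same list, also had such groups but was lower, with no call (-0.91 ± 0.32, adjusted p = 0.0677, limma). Irak4, the kinase that Myd88 recruits, did not pass (0.94 ± 0.32, adjusted p = 0.0647), nor did Traf6 (0.17 ± 0.18, adjusted p = 0.521) or Ticam1, the Tlr3 adaptor (0.29 ± 0.27, adjusted p = 0.471).

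Among 11 downstream transcription factors, Jun (1.60 ± 0.39, adjusted p = 0.0235) and Fos (1.35 ± 0.38, adjusted p = 0.0397), subunits of AP-1, rose, and Irf8, a factor of monocytes, dendritic cells and B cells that is also in the monocyte list, fell by 1.18 ± 0.26 (adjusted p = 0.0156, limma). The NF-kB subunits Rela (0.46 ± 0.23, adjusted p = 0.166) and Nfkb1 (-0.41 ± 0.27, adjusted p = 0.298) did not pass. The other Irf8 probe gave -1.11 ± 0.37 (adjusted p = 0.0581, limma). Of 16 inhibitors of the pathway, 2 rose: Dusp1, a phosphatase of MAP kinases, by 2.05 ± 0.53 (adjusted p = 0.0280) and Tollip, which restrains Irak1, by 0.96 ± 0.25 (adjusted p = 0.0271). The other Tollip probes gave 0.86 ± 0.29 (adjusted p = 0.0629, limma) and 0.87 ± 0.35 (adjusted p = 0.107), with no call. The median of the inhibitors was 0.53.

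Of 11 cytokines and early targets tested, 3 rose and 1 fell. Ier3, an early NF-kB target, rose by 3.07 ± 0.60 (adjusted p = 0.0105, limma), with levels of 0.89 to 2.73 at 8 Gy, against -2.24 to 0.98 at 0 Gy. Il1b, the interleukin that signals through Myd88, rose by 2.19 ± 0.52 (adjusted p = 0.0215), and Cxcl10 rose by 1.61 ± 0.47 (adjusted p = 0.0409). Their 8 Gy and 0 Gy ranges overlapped, at 5.58 to 7.70 against 2.76 to 6.63 for Il1b. Cd40, the costimulatory receptor of B cells and antigen-presenting cells, fell by 1.90 ± 0.46 (adjusted p = 0.0226), with its probe well above background on 3 of the 6 arrays at 8 Gy and all 7 at 0 Gy, and Tnf did not pass (0.69 ± 0.30, adjusted p = 0.124). In the interleukin receptors that share Myd88, Il1rap rose by 2.08 ± 0.59 (adjusted p = 0.0398; its other probe 0.48 ± 0.78) and Il18rap by 1.40 ± 0.44 (adjusted p = 0.0478), while Il18r1, the partner of Il18rap, did not pass (0.27 ± 0.26, adjusted p = 0.504). Il1r1, the partner of Il1rap, had a probe well above background in just 1 mouse at 8 Gy, against 4 mice at 0 Gy, and did not pass (adjusted p = 0.672). Over 35 other ways of processing, Tirap, Irf8 and Ier3 were called in 34, Cd180 in 33, Jun in 29, Il1b and Ikbke in 28, Cd40 in 27, Dusp1 in 23 and Slc15a4 and Tollip in 22. Fos was called in 17, Clec7a, Il1rap and Cxcl10 in 16 and Il18rap in 12, so these 5 lost their call in 18 or more. Trem1 was called in 33 of the 34 in which it was tested, and none of these 17 genes changed sign.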

How the data were processed

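Whole blood RNA of 18 mice was measured on 1-colour Agilent arrays, 1 array per mouse. The deposited scanner files give an intensity after the software's own background correction and detrending, per the file headers; the program was Agilent Feature Extraction 9.5.3.1, and the submitters' processing notes name limma too, with no step stated. The series-wide deposited table (linear intensity, 18 columns, median 20.7 in each) correlated on a log scale with the scanner signals with r from 0.989 to 1.00 and served as an alternative.

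Here the processed signals were taken to log2, 45 probe values from spots marked as outliers were left out, spots of a probe were averaged, and the array's 75th percentile was subtracted. A probe had to be well above background in 5 or more of the 18 mice, and the probe with the highest mean stood for its gene. Names were updated through RefSeq accessions and symbols. The linear model held dose and kit and used every array (limma 3.58.1, R 4.3.3, statmod 1.5.0, the package data.table at 1.17.8), with 2-sided tests and Benjamini-Hochberg adjustment over 13394 genes at a threshold of 0.05; it was first tested on simulated data. Errors beside log2 fold changes are standard errors. A marker score is the mean over a list's tested genes of the log2 level minus its 0 Gy mean.

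The genes named were all 10 members and, of each role list, those past the threshold, up to 4 with the smallest p. Cd14, Ly96, Unc93b1, Irak4, Traf6, Ticam1, Rela, Nfkb1, Tnf, Il1r1 and Il18r1 were added as known partners once values had been seen. Ecsit was added then too, for its groups free of overlap. For each member past the filter, the 3 genes with the highest Pearson r over the 18 arrays were named as most like it. The members and lists were chosen with earlier results of these data known. Replicate numbers were checked for pairing through the deviations of the arrays from their group means. The 16 pairs of arrays with the same number in different dose groups had a median r of 0.10, with 8 above 0.1. The 91 pairs with different numbers had a median r of -0.019, with 27 above 0.1. The model treated the mice as unpaired, and this check cannot settle whether the numbers pair them. Alternatives covered the background correction, the normalization, the filter, the choice of probe, the kit, the slide, the scan day, the brightness of the array, array weights and each array left out in turn.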

Additional observations from a re-analysis of the deposited data

Results flagged for a closer look

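Of 51 sets of values checked for an array far from the others of its dose group, 5 held one. Chance flags about 1 in 20 such sets. The sets share arrays and are correlated, with r = 0.94 between Tlr6 and the neutrophil score, so that rate does not measure how unusual 5 flags are. Of the 5 flags, 4 were the array 0 Gy replicate 5. Its Tlr2 level was 3.20, against 1.08 to 1.84 on the other 6 arrays at 0 Gy, and its Tlr6 level was 2.09, against -0.26 to 0.59. Its neutrophil marker score was 1.70, against -0.65 to 0.12, and its B cell marker score was -1.88, against -0.27 to 0.76. The platelet marker score of 8 Gy replicate 1 was 0.17, against 1.02 to 1.37 on the other arrays at 8 Gy, and this array also held the lowest 8 Gy levels of Tlr6 (0.98) and Myd88 (4.23). What set these arrays apart was not tested.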

How the results depend on the processing

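Each result was recomputed under 35 alternatives, 2 of them chosen after seeing the data. The 5 genes called at 8 Gy kept their sign in all 35 and their call in 29 for Myd88, 28 for Tlr2, 25 for Tlr1, 18 for Tlr4 and 15 for Tlr6. The count of 5 genes called at 8 Gy became 3 with normexp background correction (1 higher, 2 lower), with the slide or with the scan day as a random block, 2 with no filter on dim probes, where 20732 genes were tested, and 0 with the RiboPure arrays only or with array brightness as a covariate. Of all genes, 15.3% were called with normexp, 4.36% and 5.87% with the slide or scan day block, 2.73% with no filter, 2.00% with RiboPure only and 0% with the covariate, against 11.9% as reported. Leaving out 1 array at a time gave 0 to 5 genes at 8 Gy, 0 to 2 at 2 Gy, and 0 at 8 Gy against 2 Gy and between the kits. With array weights 6 genes were called at 2 Gy (4 higher, 2 lower) and 4 between the kits, where 34.3% and 37.1% of all genes were called, and 2 were called at 2 Gy with the slide as a random block and 0 Gy replicate 5 left out (8.68% of all genes). Whether the replicate numbers pair the mice is not known. With a replicate block 0 genes of the set and 1.82% of all genes were called at 8 Gy (Tlr2 1.63, adjusted p = 0.0545, limma). In that fit Tlr1 at 8 Gy against 2 Gy turned to 0.11.

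The signs that turned belong to differences with no call as reported; of these, Tlr5 between the kits was called with array weights (-1.57, adjusted p = 0.0334, limma). Tlr7 at 8 Gy against 2 Gy turned to -0.13 with normexp, -0.068 with the percentile over probes always above background, -0.028 with RiboPure arrays only and -0.27 with array weights, and to -0.12 without 0 Gy replicate 4 and 2 Gy replicate 3 together; leaving out 1 array gave -0.10 to 0.19. Tlr9 there turned to 0.16 with array weights and 0.052 without those 2 arrays, with -0.21 to 0.052 over single arrays left out. Tlr5 at 8 Gy against 0 Gy turned to -0.47 with array weights and ran from -0.23 to 0.57 over single arrays left out. Between the kits, Tlr6 turned to 0.13 with array weights (-0.72 to 0.0087 over single arrays) and Tlr5 to 0.039 with the slide block without 0 Gy replicate 5 (-0.95 to 0.63 over single arrays). Causes were not tested. Of all calls at 8 Gy, 60.8% were higher, against 44.6% with normexp, 45.8% after quantile normalization, 45.4% in the authors' deposited table and 37.6% with the percentile over probes always above background, which moved the median of all genes to -0.11 (0.06 as reported); no filter moved it to 0.27. The number of arrays limits every count, and Tlr3, Tlr8 and part of the Tlr5 values lie near background.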
